A study of Mus musculus with 15 samples.

Results

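Chemokines are small secreted proteins that guide leukocytes, and their receptors are membrane proteins with 7 transmembrane segments. Members of the family were taken by gene name: every row whose symbol begins with Ccl, Cxcl, Ccr, Cxcr or Ackr and a digit, with Cx3cl1, Cx3cr1 and Ccrl2, and without antisense and -ps names. This gave 66 of the 47069 genes in the table, 43 for ligands and 23 for receptors, under 61 distinct symbols. The 66 genes were read in 15 left ventricle libraries of C57BL/6 mice, 5 from each of 3 groups. PBS mice had a myocardial infarction and, on day 7, an injection of phosphate-buffered saline into the heart muscle. rHCI mice had the same infarction and were injected on day 7 with rHCI, a hydrogel of recombinant human collagen type I. Hearts of both groups were taken 2 days later. Sham mice had a sham operation and no treatment, and were 10 weeks old at an age-matched endpoint. Infarct and injection therefore cannot be told apart in any comparison with sham. Library totals ran from 32978702 to 103356830 counts.

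Most chemokine receptors signal through inhibitory G proteins and drive directed migration, while the atypical receptors bind chemokines without that signal and mainly remove or redistribute them. In an injured heart, ligands of CCR2 draw monocytes from the blood and ligands of CXCR2 draw neutrophils. CXCL12 and its receptor CXCR4 hold and recruit progenitor cells and lymphocytes, and ACKR3 takes up CXCL12.

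Of the 66 genes, 40 had enough counts to be tested between PBS and sham hearts. At an adjusted p under 0.05 in edgeR (quasi-likelihood, Benjamini-Hochberg over all genes), 30 of the 40 were higher and 4 lower in PBS hearts, and 6 did not pass. Over all 16207 genes tested, 36.5% were higher and 34.9% lower. The median log2 fold change of the 40 was 2.28, against −0.01 over all genes tested. Values of the PBS and sham libraries did not overlap for 29 of the higher and 2 of the lower genes, where 31.5% and 27.2% of all genes did not. The filter on low counts lets a gene through when it is high in only one group, so these counts describe the genes tested and not the 66. In bulk tissue, more cells of a type and more RNA per cell cannot be told apart. Markers of the leukocytes that carry these receptors were mostly higher as well. Monocyte markers summed to 19.8 to 29.9 CPM (counts relative to library size, corrected by TMM factors) in sham and 109 to 142 CPM in PBS libraries, with 9 of 9 higher. Macrophage markers summed to 210.1 to 258 and 551 to 720.0 CPM, with 10 of 11 higher and 1 lower. Neutrophil markers summed to 2.65 to 4.45 and 14 to 40.6 CPM, with 6 of 6 tested higher, and 12 of 13 T and NK cell markers were higher. Among other cells, 8 of 8 fibroblast markers were higher and 7 of 8 ventricular cardiomyocyte markers, which summed to at least 33938 CPM in each of these libraries, were lower. Mitochondrial genes took 15.3 to 17.2% of counts in sham and 10.1 to 12.5% in PBS libraries. Their part in the changes of the chemokine genes was not tested.

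**Figure D1:**
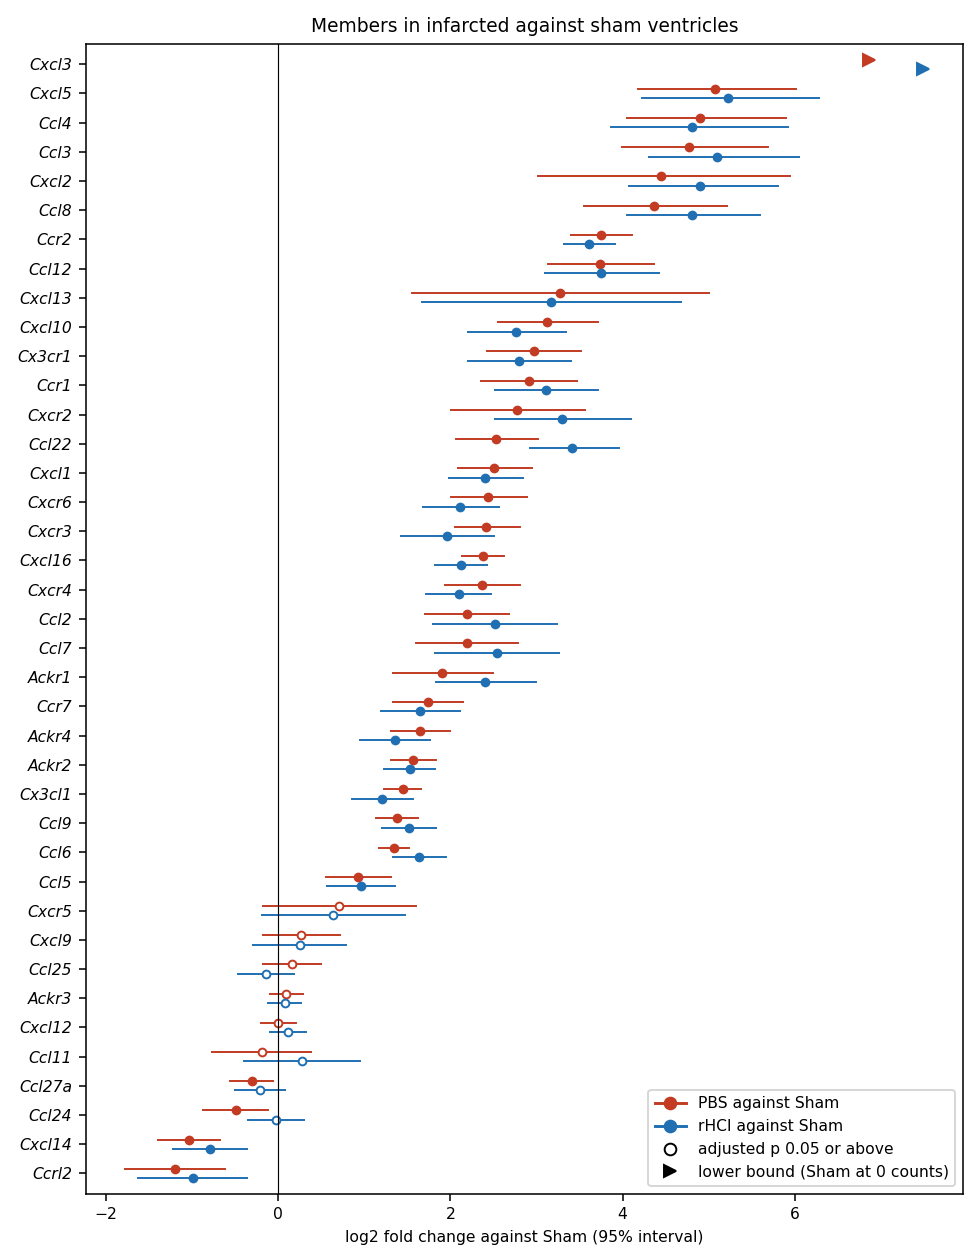
Log2 fold change (x axis) of tested members (y axis) in PBS (red) and rHCI (blue) hearts against sham hearts, with 95% intervals. Filled points passed at edgeR adjusted p under 0.05. Triangles are lower bounds for the group mean of Cxcl3, which had 0 counts in sham. Cxcl3 is at the top, and in both comparisons Ccrl2 and Cxcl14 passed below 0.

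Library values below are in CPM and in the order Sham 16, 17, 18, 19 and 20, then PBS 2, 6, 9, 12 and 14, then rHCI 1, 3, 7, 11 and 13. Fold changes are log2 with the standard error. Those called higher in PBS than sham had edgeR adjusted p from 9.28e-10 (Ccr2) to 0.00230 (Cxcl13).

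The 4 CCR2 ligands tested, Ccl2, Ccl7, Ccl8 and Ccl12, were all higher in PBS hearts. Their genes lie together on chromosome 11 (GRCm38, 82035571 to 82305690, with Ccl11 and Ccl1). Ccl2 encodes MCP-1, the main signal for monocytes to leave the bone marrow and enter tissue. It had 1.02, 1.14, 0.628, 0.805 and 0.418 CPM in the sham libraries, 2.90, 3.52, 3.60, 4.57 and 3.43 CPM in the PBS libraries and 5.85, 6.65, 4.68, 2.73 and 2.53 CPM in the rHCI libraries. Every infarcted heart was above every sham heart, and the PBS difference was 2.19 ± 0.23. Ccl7, whose protein MCP-3 shares CCR2 with MCP-1, had 0.542, 0.837, 0.285, 0.687 and 0.237 CPM in the sham libraries, 2.01, 2.18, 2.20, 2.78 and 2.32 CPM in the PBS libraries and 3.56, 3.90, 2.85, 1.71 and 2.53 CPM in the rHCI libraries. The groups again did not overlap (2.19 ± 0.27), and rHCI 1 and rHCI 3 were the highest hearts for both Ccl2 and Ccl7. Ccl8 encodes MCP-2, a mouse ligand of CCR8 that is grouped here by its family name. It had 0.135, 0.102, 0.190, 0.118 and 0.113 CPM in the sham libraries, 5.40, 2.18, 2.55, 2.17 and 1.60 CPM in the PBS libraries and 4.95, 2.23, 2.05, 3.77 and 5.40 CPM in the rHCI libraries. Its PBS difference was 4.36 ± 0.38, 20.6-fold, and PBS 2, at 5.40 CPM, stood apart from the other PBS hearts at 1.60 to 2.55 CPM. Ccl12, the mouse gene for MCP-5, had 0.271, 0.225, 0.0571, 0.216 and 0.0678 CPM in the sham libraries, 1.95, 2.21, 2.25, 2.25 and 2.33 CPM in the PBS libraries and 2.03, 1.93, 2.53, 2.07 and 2.45 CPM in the rHCI libraries. PBS hearts lay within a narrow range and were 13.3-fold above sham hearts (3.73 ± 0.29).

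Receptors for these and related ligands rose as well. Ccr2, the receptor of inflammatory monocytes, had 1.26, 1.90, 1.24, 1.45 and 1.06 CPM in the sham libraries, 24.3, 17.6, 17.2, 17.2 and 15.5 CPM in the PBS libraries and 18.2, 15.4, 16.6, 15.2 and 17.4 CPM in the rHCI libraries. PBS 2 was the highest heart, and the difference of 3.75 ± 0.16 had the smallest adjusted p among the members. Ccr1, a receptor of myeloid cells for Ccl3, Ccl6 and Ccl9, rose from 0.664 ± 0.255 to 4.94 ± 1.10 CPM (SD, n = 5). Every infarcted heart was above every sham heart for both receptors, whose genes lie on chromosome 9.

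The 5 CC ligands of the MIP-1 and RANTES group on chromosome 11 (83525778 to 83664683) were also all higher, with the largest fold changes in the least abundant. Ccl3, which encodes MIP-1 alpha, had 0.0135, 0.0408, 0.0381, 0.0589 and 0.0339 CPM in the sham libraries, 1.38, 1.23, 1.21, 0.653 and 0.633 CPM in the PBS libraries and 1.70, 1.34, 1.60, 0.613 and 1.07 CPM in the rHCI libraries. Sham hearts held 11 reads in all, and PBS hearts were 27.4-fold higher (4.77 ± 0.39). Ccl4, which encodes MIP-1 beta, had 0, 0, 0.0571, 0.0785 and 0.0452 CPM in the sham libraries, 1.38, 1.35, 1.05, 0.922 and 0.833 CPM in the PBS libraries and 1.21, 1.34, 1.17, 0.644 and 0.793 CPM in the rHCI libraries. It was at 0 in Sham 16 and Sham 17 and 29.9-fold higher in PBS hearts (4.90 ± 0.43). Ccl6, a rodent chemokine made by macrophages, had 14.1, 12, 12.2, 14 and 12.4 CPM in the sham libraries, 31.9, 30.7, 30.1, 40.0 and 32.3 CPM in the PBS libraries and 51.4, 43.0, 33.8, 27.9 and 44.1 CPM in the rHCI libraries. It was readily measured in sham hearts and rose by 2.55-fold (1.35 ± 0.08), with PBS 12 above the other PBS hearts. Ccl9, which encodes MIP-1 gamma, had 10.4, 8.41, 9.55, 10.8 and 7.17 CPM in the sham libraries, 25.7, 24.4, 23.1, 27.4 and 20.2 CPM in the PBS libraries and 30.8, 30.0, 23.1, 19.4 and 28.6 CPM in the rHCI libraries. Its rise of 1.38 ± 0.11 was close to that of its neighbour Ccl6. Ccl5, which encodes the T cell chemokine RANTES, had the smallest rise of the 5, from 0.784 ± 0.207 to 1.48 ± 0.126 CPM (0.93 ± 0.17).

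The ligands of CXCR2, the main chemokine receptor of neutrophils, included the largest rises of the family. Cxcl1, Cxcl2, Cxcl3 and Cxcl5 lie within 147 kb on chromosome 5 (90759360 to 90905938). The stretches before the start sites of Cxcl1, Cxcl2 and Cxcl3 are shown because these 3 genes hold one identical run. Those of Cxcl10, the member with matches to all 3 motifs searched, and of Ccrl2, which holds the NF-kB consensus and fell, are shown beside them. Sequences are from RefSeq (GRCm38.p6), 5′ to 3′ on the strand of the gene, and stop before the first annotated transcript base. Capitals mark matches to the NF-kB consensus, the site bound by the inflammatory transcription factor NF-kB, on either strand. In Cxcl10 the first capitals, GAAAGTGAAA, mark a match to GAAA, any 2 bases and GAAA, the core of an interferon-stimulated response element.
Cxcl1, chr5:90890995-90891240, plus strand: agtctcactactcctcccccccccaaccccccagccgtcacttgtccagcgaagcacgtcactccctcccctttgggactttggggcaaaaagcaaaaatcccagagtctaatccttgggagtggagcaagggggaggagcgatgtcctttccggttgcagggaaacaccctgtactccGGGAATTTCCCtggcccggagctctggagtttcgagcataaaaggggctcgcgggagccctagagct
Cxcl2, chr5:90903649-90903870, plus strand: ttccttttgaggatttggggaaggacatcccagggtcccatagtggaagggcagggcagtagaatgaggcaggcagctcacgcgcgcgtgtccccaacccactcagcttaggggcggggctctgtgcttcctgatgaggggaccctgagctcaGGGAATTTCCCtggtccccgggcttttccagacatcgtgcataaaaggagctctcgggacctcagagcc
Cxcl3, chr5:90785851-90786100, plus strand: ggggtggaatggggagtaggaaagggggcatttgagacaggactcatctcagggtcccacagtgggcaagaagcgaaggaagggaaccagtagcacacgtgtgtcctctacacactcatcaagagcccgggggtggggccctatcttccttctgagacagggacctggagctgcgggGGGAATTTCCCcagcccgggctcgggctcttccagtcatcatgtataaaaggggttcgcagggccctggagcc
Cxcl10, chr5:92348890-92349139, minus strand: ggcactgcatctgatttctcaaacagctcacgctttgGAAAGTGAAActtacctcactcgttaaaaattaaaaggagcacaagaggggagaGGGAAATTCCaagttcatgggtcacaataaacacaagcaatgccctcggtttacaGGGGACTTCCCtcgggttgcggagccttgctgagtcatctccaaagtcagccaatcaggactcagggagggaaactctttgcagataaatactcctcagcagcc
Ccrl2, chr9:111057520-111057768, minus strand: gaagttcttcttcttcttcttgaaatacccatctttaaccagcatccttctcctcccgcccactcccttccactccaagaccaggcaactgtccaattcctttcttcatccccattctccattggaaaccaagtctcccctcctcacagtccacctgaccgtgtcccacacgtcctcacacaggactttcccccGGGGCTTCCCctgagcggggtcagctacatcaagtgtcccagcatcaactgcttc
The run GGGAATTTCCC stands at −71 to −61 in Cxcl1, at −97 to −87 in Cxcl2 and at −73 to −63 in Cxcl3, counted from the RefSeq start site. It holds 2 overlapping matches. Of the 61 member symbols, 45 had a promoter entry, and 12 of the 45 held the NF-kB consensus within 250 bases before a start site. Over all genes with an entry, 8.23% did, and 7.25% of the 32851 windows. Of the 12, Ackr2, Ccl9, Ccr1, Cxcl1, Cxcl2, Cxcl3 and Cxcl10 were higher in PBS hearts, Ccrl2 was lower, and Ccl1, Ccl20, Ccr3 and Ccr6 were not tested. The interferon-response core stood in Cxcl10, Cxcl14 and Ccl19 among the 45 members, in 3.46% of genes with an entry and in 2.98% of windows. The AP-1 site TGANTCA stood in 6 of the 45 members, in 7.82% of genes with an entry and in 6.75% of windows. Cxcl10 holds it at −74 to −68. A match describes these letters only and is not a measured binding site.

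Cxcl5 encodes LIX, a neutrophil chemokine of stromal and epithelial cells. It had 0.108, 0.204, 0.171, 0.0981 and 0.0678 CPM in the sham libraries, 6.86, 3.75, 5.59, 1.87 and 3.20 CPM in the PBS libraries and 4.32, 5.43, 3.84, 1.54 and 8.02 CPM in the rHCI libraries. PBS hearts were 33.8-fold above sham hearts (5.08 ± 0.42) and ranged from 1.87 CPM in PBS 12 to 6.86 CPM in PBS 2. Cxcl3, a further neutrophil chemokine, had 0 CPM in each sham library, 1.33, 2.32, 1.09, 0.537 and 0.283 CPM in the PBS libraries and 2.43, 3.09, 1.05, 0.770 and 1.25 CPM in the rHCI libraries. No sham library held a read of it. Set against 3 counts summed over the 5 sham libraries, the PBS mean was at least 117-fold and the rHCI mean at least 180-fold higher. These bounds hold for the group means and not for each heart. Cxcl2, which encodes MIP-2, had 0.0135, 0.0204, 0.114, 0.0785 and 0.113 CPM in the sham libraries, 3.66, 2.11, 0.984, 0.583 and 0.650 CPM in the PBS libraries and 1.66, 1.82, 2.83, 1.35 and 2.88 CPM in the rHCI libraries. It rose by 4.45 ± 0.67, with PBS 2 and PBS 6 above the other PBS hearts. Cxcl1, which encodes KC, had 0.393, 0.470, 0.400, 0.471 and 0.294 CPM in the sham libraries, 2.20, 1.62, 2.34, 3.06 and 2.18 CPM in the PBS libraries and 1.62, 2.21, 2.66, 1.63 and 2.38 CPM in the rHCI libraries. It rose by 2.51 ± 0.20, with no overlap between PBS and sham hearts. Cxcr2 itself, on neutrophils, rose from 0.202 ± 0.0619 to 1.42 ± 0.752 CPM (2.77 ± 0.36), with 2.71 CPM in PBS 2 and 0.805 to 1.33 CPM in the other PBS hearts.

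**Figure D2:**
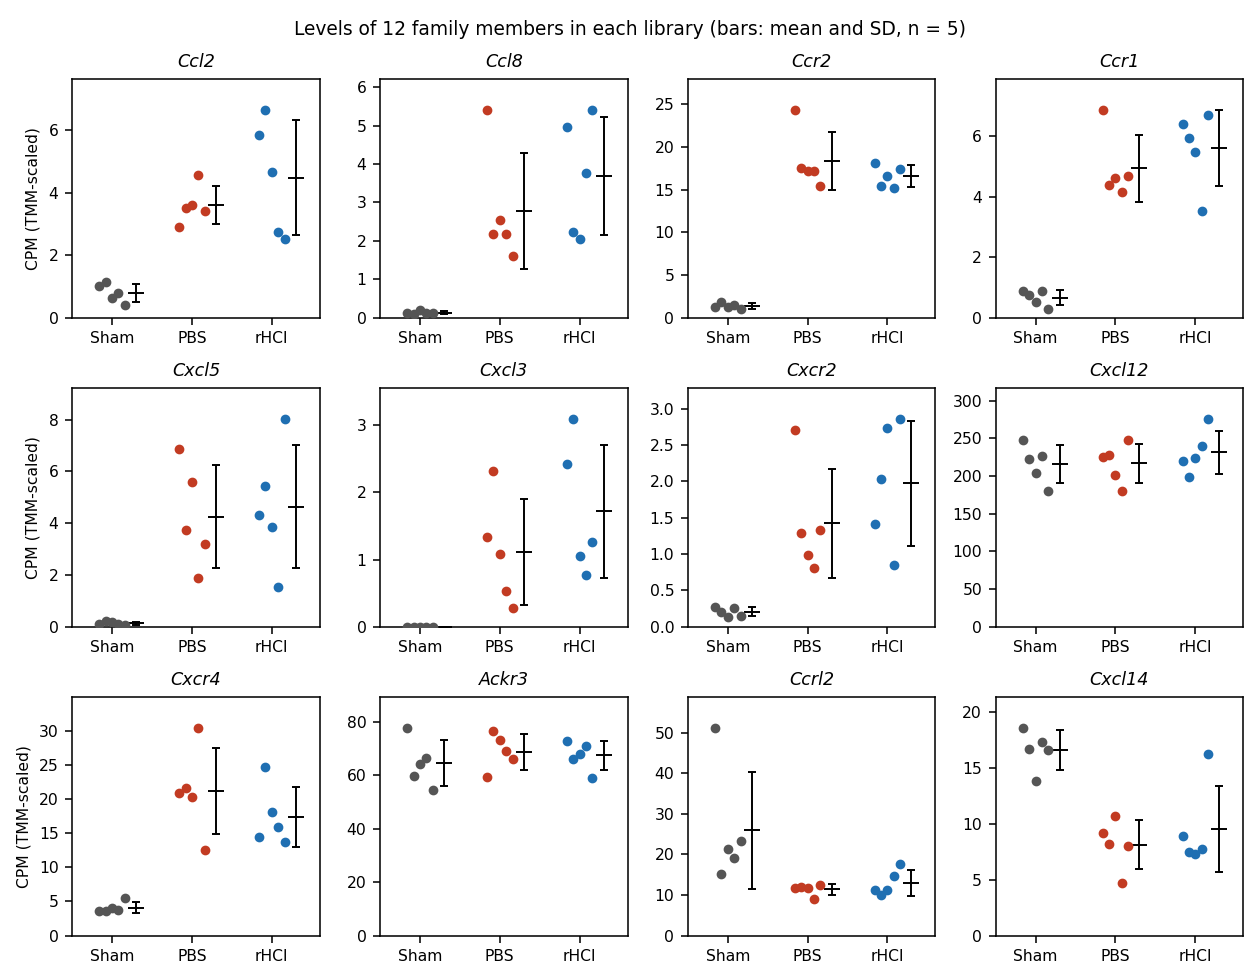
TMM-scaled CPM (y axis, linear from 0) of 12 members in each of the 15 libraries by group (x axis), with mean and SD beside the points (n = 5). Ccr2 and Ccr1 separate the groups by a wide margin, Cxcl12 and Ackr3 do not separate them, and Ccrl2 and Cxcl14 are highest in sham hearts.

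The interferon-induced CXCR3 ligands did not all move together. Cxcl10, which encodes IP-10 and draws activated T cells, had 0.311, 0.429, 0.304, 0.294 and 0.124 CPM in the sham libraries, 2.98, 2.84, 2.13, 2.72 and 1.63 CPM in the PBS libraries and 2.03, 1.90, 2.46, 1.62 and 1.55 CPM in the rHCI libraries. It rose by 3.12 ± 0.27 without overlap. Cxcl9, which encodes MIG and lies beside Cxcl10 on chromosome 5, had 4.14, 6.10, 4.49, 2.77 and 3.0 CPM in the sham libraries, 5.59, 6.42, 4.32, 4.08 and 4.15 CPM in the PBS libraries and 4.23, 3.76, 3.63, 7.80 and 4.65 CPM in the rHCI libraries. Its groups overlapped and the difference of 0.27 ± 0.21 did not pass (edgeR adjusted p = 0.258). Without Sham 17, the highest sham heart, it passed at 0.45 (edgeR adjusted p = 0.0443). The receptor of both, Cxcr3, found on effector T and NK cells, had 0.162, 0.204, 0.247, 0.196 and 0.237 CPM in the sham libraries, 1.25, 1.2, 1.04, 1.19 and 0.966 CPM in the PBS libraries and 0.665, 1.23, 0.616, 0.912 and 0.627 CPM in the rHCI libraries. It rose by 2.42 ± 0.17. Cxcl11, named as the third ligand, held 22 counts over the 15 libraries and was not tested. It is annotated as a polymorphic pseudogene, and 41.7% of its exon bases are overlapped by Gm2673 on the opposite strand.

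The transmembrane chemokines and their receptors were higher. Cx3cl1 encodes fractalkine, which is made by endothelium and acts both as an adhesion molecule and, when shed, as an attractant. It had 9.15, 9.68, 9.36, 11.2 and 9.07 CPM in the sham libraries, 28.7, 26.5, 26.5, 29.8 and 20.5 CPM in the PBS libraries and 21.6, 30.8, 25.6, 17.9 and 15.3 CPM in the rHCI libraries. The rise was 1.45 ± 0.10, and Sham 19 stood above the other sham hearts. Cx3cr1, its receptor on patrolling monocytes and macrophages, had 3.21, 4.27, 2.17, 3.94 and 1.24 CPM in the sham libraries, 28.6, 22.2, 23, 20.6 and 19.3 CPM in the PBS libraries and 24.8, 21.4, 22.5, 17.1 and 15.1 CPM in the rHCI libraries. PBS hearts were 7.82-fold higher (2.97 ± 0.25). Cxcl16, a membrane chemokine that also scavenges oxidised lipid, had 7.32, 6.78, 7.86, 6.99 and 6.26 CPM in the sham libraries, 38.0, 36.4, 41.1, 40.4 and 27.0 CPM in the PBS libraries and 26.7, 38.7, 36.2, 26.4 and 23.6 CPM in the rHCI libraries. Its rise of 2.38 ± 0.11 had the second smallest adjusted p of the members (1.40e-09). Of its exon bases, 18.3% are overlapped on the opposite strand by Zmynd15. Cxcr6, the receptor for CXCL16 on T cell subsets, had 0.217, 0.286, 0.381, 0.255 and 0.192 CPM in the sham libraries, 1.38, 1.33, 1.49, 1.75 and 1.12 CPM in the PBS libraries and 1.02, 1.27, 1.30, 1.08 and 0.941 CPM in the rHCI libraries. It rose by 2.44 ± 0.21.

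The CXCL12 axis was the most abundant part of the family in sham hearts, and with TMM scaling only the receptor Cxcr4 of its 3 genes passed the test between PBS and sham. Cxcl12 (ENSMUSG00000061353) encodes the stromal chemokine SDF-1. It had 248, 222, 204, 226 and 180.2 CPM in the sham libraries, 225, 228, 202, 181 and 248 CPM in the PBS libraries and 219.8, 199, 224, 239.8 and 276 CPM in the rHCI libraries. The 3 groups overlapped, and the difference between PBS and sham was 0.00 ± 0.09, with a 95% interval of −0.20 to 0.21. Ackr3, the scavenging receptor for CXCL12, had 77.6, 59.8, 64.3, 66.3 and 54.5 CPM in the sham libraries, 59.1, 76.6, 73.1, 68.9 and 66.0 CPM in the PBS libraries and 72.7, 66.2, 67.8, 70.9 and 59.1 CPM in the rHCI libraries. Its difference was 0.09 ± 0.09 with an interval of −0.10 to 0.28. Cxcr4, the signalling receptor, had 3.57, 3.57, 3.98, 3.71 and 5.47 CPM in the sham libraries, 20.9, 21.6, 20.3, 30.4 and 12.5 CPM in the PBS libraries and 14.4, 24.6, 18, 15.9 and 13.7 CPM in the rHCI libraries. It was 5.17-fold higher in PBS hearts (2.37 ± 0.20), from 12.5 CPM in PBS 14 to 30.4 CPM in PBS 12. Cxcl12 and Ackr3 depended on the scaling. With library totals in place of TMM, the median log2 fold change of all genes moved to 0.27, and Cxcl12 (0.27, edgeR adjusted p = 0.0147) and Ackr3 (0.37, edgeR adjusted p = 0.00212) were then called higher, near that median.

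Levels of different genes were compared per exon length, in TPM (counts per exon length, scaled to a common total without TMM). In sham hearts Cxcl12 was first with 64.3 ± 8.30 TPM (SD, n = 5), followed by Ackr3 with 46.8 ± 6.58, Ccrl2 with 24.3 ± 13.7, Cxcl14 with 22.1 ± 2.50 and Ccl6 with 17.5 ± 1.40. Ccrl2 overlapped both Cxcl14 and Ccl6. With the longest transcript as length instead of all exons, these 5 kept their order in sham hearts, with Ccrl2 at 20.9 TPM. Ccrl2 ran from 14.5 to 48.3 TPM over the sham libraries, with the highest value in Sham 16. Its mean and its place above Cxcl14 rest largely on that library. In PBS hearts the order was Cxcl12 (84.3 ± 7.53 TPM), Ackr3 (65.5 ± 5.96), Ccl6 (58.9 ± 9.31), Cxcl16 (38.9 ± 7.58) and Cxcr4 (37.7 ± 12.7), where Ackr3 overlapped Ccl6 and Cxcl16 overlapped Cxcr4. With the longest transcript, Ccl6 (58.8 TPM) stood above Ackr3 (57.3 TPM) in PBS hearts. In rHCI hearts Ccl6 (68.5 ± 17.1 TPM) and Ackr3 (61.7 ± 7.55) changed places within their spread. The summed TPM of the ligands was 143 ± 15.2 in sham, 350.2 ± 37.5 in PBS and 359.7 ± 46.3 in rHCI hearts. Group differences in TPM are not those with TMM scaling. Cxcl12 had 64.3 TPM in sham and 84.3 TPM in PBS hearts, beside a TMM-scaled log2 difference of 0.00. Cxcl12 made up 44.9% of the summed ligand TPM in sham hearts and 24.3% in both infarcted groups. Ackr3 made up 55.9% of the summed receptor TPM in sham, 36.5% in PBS and 37.9% in rHCI hearts.

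**Figure D3:**
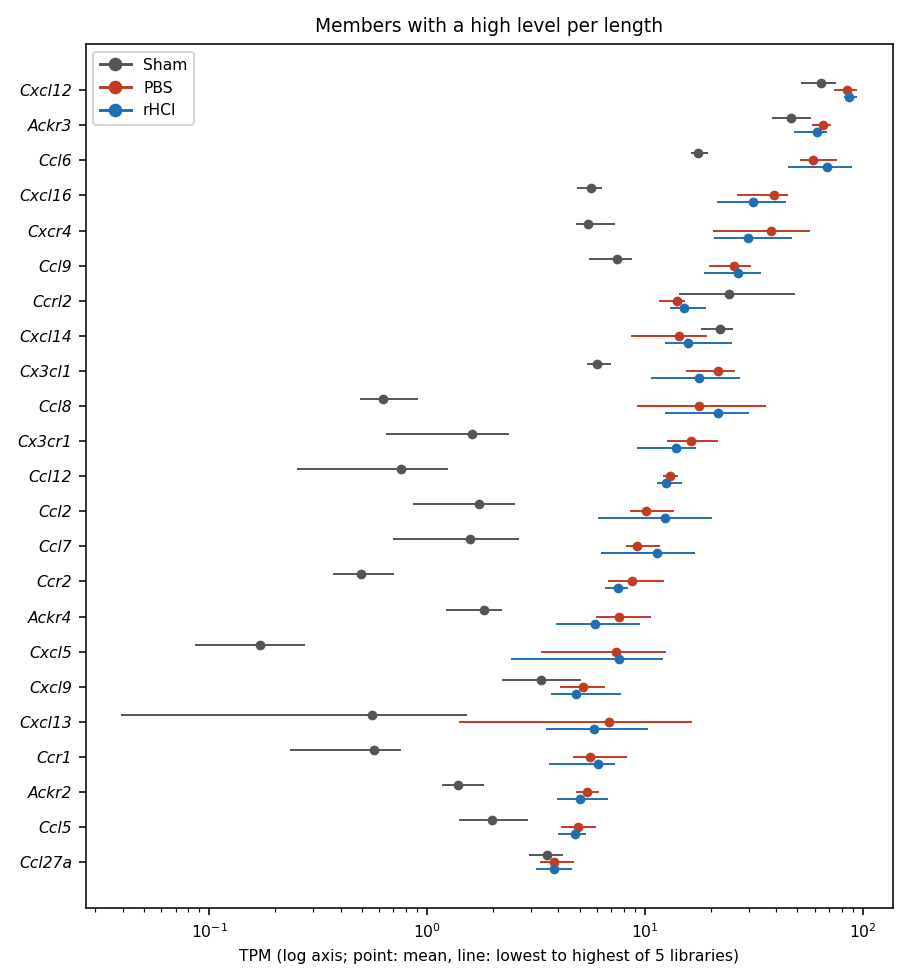
TPM (x axis, log) of members with a high mean over the 15 libraries (y axis), by group; points are means and lines run from the lowest to the highest of 5 libraries. Cxcl12 and Ackr3 lead in sham hearts. In infarcted hearts Ccl6 comes close to Ackr3, and Cxcl16 and Cxcr4 follow below them.

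Among the other atypical receptors, 3 rose and Ccrl2 fell. Ackr1, the Duffy antigen that carries chemokines across venules, had 0.230, 0.225, 0.190, 0.196 and 0.102 CPM in the sham libraries, 0.895, 0.480, 0.562, 0.840 and 0.750 CPM in the PBS libraries and 0.822, 1.09, 0.949, 0.660 and 1.36 CPM in the rHCI libraries. It rose by 1.90 ± 0.27, and 25.7% of its exon bases are shared with Cadm3 on the same strand. Ackr2, which clears inflammatory CC chemokines, had 1.58, 1.57, 1.54, 2.34 and 1.90 CPM in the sham libraries, 4.75, 5.19, 5.89, 5.60 and 5.10 CPM in the PBS libraries and 4.68, 6.10, 5.21, 5.08 and 4.48 CPM in the rHCI libraries. It rose by 1.57 ± 0.12. Ackr4, which clears CCL19, CCL21 and CCL25, had 2.69, 4.14, 4.51, 4.85 and 4.10 CPM in the sham libraries, 13.1, 10.6, 11.5, 16.9 and 11.4 CPM in the PBS libraries and 8.82, 14.6, 10.4, 9.63 and 7.64 CPM in the rHCI libraries. Its rise was 1.65 ± 0.16, and 8.90% of its exon bases are overlapped by Acad11 on the opposite strand. PBS and sham hearts did not overlap for any of the 3.

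The falls were fewer and smaller. Ccrl2 binds chemerin and presents it to cells with the chemerin receptor. It had 51.2, 15.1, 21.3, 19.1 and 23.2 CPM in the sham libraries, 11.7, 12.1, 11.8, 9.08 and 12.5 CPM in the PBS libraries and 11.2, 9.96, 11.2, 14.6 and 17.8 CPM in the rHCI libraries. Sham 16 stood far above the other sham hearts, and PBS 12 below the other PBS hearts. Every PBS heart was below every sham heart, and the difference of −1.19 ± 0.27 (edgeR adjusted p = 0.00132) was −0.79 without Sham 16 and still passed. Cxcl14, a chemokine of epithelium and stroma, had 18.6, 16.7, 13.8, 17.4 and 16.7 CPM in the sham libraries, 9.17, 8.17, 10.7, 4.75 and 8.01 CPM in the PBS libraries and 8.90, 7.48, 7.31, 7.75 and 16.3 CPM in the rHCI libraries. PBS hearts were below all sham hearts (−1.04 ± 0.17, edgeR adjusted p = 8.46e-05), and rHCI 13 stood among the sham values. Ccl24 encodes eotaxin-2, an eosinophil attractant made by macrophages. It had 1.45, 1.45, 1.26, 1.57 and 1.23 CPM in the sham libraries, 0.814, 0.812, 0.773, 1.38 and 1.12 CPM in the PBS libraries and 1.64, 1.55, 1.12, 1.32 and 1.14 CPM in the rHCI libraries. Eosinophil markers summed to 0.0761 to 0.429 CPM in sham and 0.600 to 1.09 CPM in PBS libraries, with Epx at 0 in both groups, and their part was not tested. PBS 12, at 1.38 CPM, lay within the sham range. Its fall of −0.49 ± 0.18 (edgeR adjusted p = 0.0223) did not pass without Sham 19, PBS 6 or PBS 9 (edgeR adjusted p from 0.0509 to 0.0616), nor among the libraries that share 1 number in their deposited names, which leaves out Sham 19 and PBS 6 (−0.37, edgeR adjusted p = 0.118). Ccl27a, a skin-homing chemokine, had 3.44, 3.51, 3.29, 2.90 and 4.16 CPM in the sham libraries, 3.31, 2.6, 2.55, 2.93 and 2.70 CPM in the PBS libraries and 3.54, 2.21, 3.05, 2.92 and 3.17 CPM in the rHCI libraries. Its fall of −0.31 ± 0.11 (edgeR adjusted p = 0.0264) did not pass without Sham 20, PBS 6, PBS 9 or PBS 14 (edgeR adjusted p from 0.0577 to 0.0778). Of its stretches of 50 exon bases, 45.0% also occur in other genes, so its level is uncertain. With library totals, neither Ccl24 (−0.22) nor Ccl27a (−0.03) passed.

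Chemokines of lymphoid tissue and epithelium were low or uneven. Cxcl13, which attracts B cells, had 0.501, 0.694, 0.0190, 0.0589 and 0.0226 CPM in the sham libraries, 2.14, 0.535, 0.878, 5.59 and 3.0 CPM in the PBS libraries and 3.03, 1.2, 1.31, 1.51 and 4.24 CPM in the rHCI libraries. It rose by 3.27 ± 0.80, but PBS 6 lay below Sham 17, and Sham 16 and Sham 17 stood well above the other 3 sham hearts, at 0.0190 to 0.0589 CPM. B and plasma cell markers were uneven too, though less so than Cxcl13, with sums of 7.03 to 45.8 CPM in sham and 28 to 148.6 CPM in PBS libraries. Their part was not tested. Its receptor Cxcr5 had 0.210 ± 0.151 CPM in sham and 0.340 ± 0.133 in PBS hearts and did not pass (0.71 ± 0.41, edgeR adjusted p = 0.135). Without Sham 17 it did, at 1.17 (edgeR adjusted p = 0.0102). Ccr7, the receptor by which dendritic cells and T cells reach lymph nodes, rose from 0.338 ± 0.0873 to 1.13 ± 0.142 CPM. Of 8 dendritic cell markers tested, 7 were also higher, and their part was not tested. The list also holds Ccr9, a member of the family, which is not among the 8. All 9 genes of the list summed to 19.9 to 25.6 CPM in sham and 25.1 to 26.6 CPM in PBS libraries, so the sums overlapped. Ccl25, a ligand of CCR9, had 0.785, 0.980, 1.31, 0.922 and 0.971 CPM in the sham libraries, 0.895, 1.2, 1.0, 1.21 and 1.17 CPM in the PBS libraries and 0.880, 0.902, 0.865, 0.896 and 0.904 CPM in the rHCI libraries. Its PBS difference was 0.16 ± 0.16 (edgeR adjusted p = 0.378). Ccl11, eotaxin-1, ranged over 0.362 to 0.715 CPM in sham and 0.246 to 0.650 in PBS hearts and did not pass (−0.19 ± 0.27). It lies between Ccl7 and Ccl12, which were both higher.

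**Figure D4:**
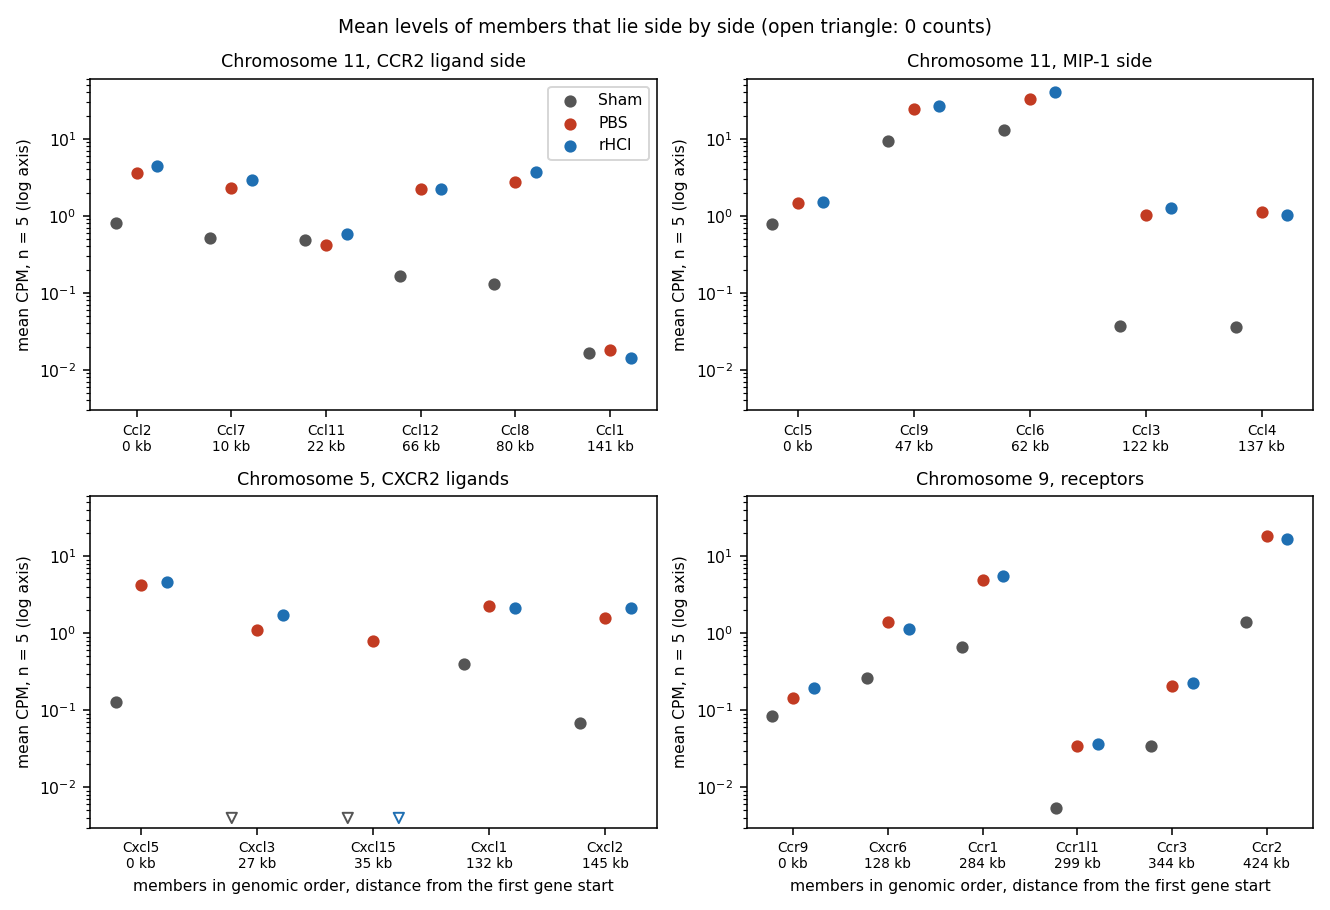
Mean TMM-scaled CPM (y axis, log) of members that lie side by side in 4 clusters, in genomic order with the distance from the first gene start (x axis), for sham (grey), PBS (red) and rHCI (blue) hearts, n = 5 each; open triangles are 0 counts. Ccl11 lies close to its sham level between neighbours that are higher in infarcted hearts, and the Cxcl15 mean in PBS hearts comes from PBS 6.

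The remaining 26 genes were not tested between PBS and sham. Of these, 8 had 0 counts in all libraries: Ccl19, Ccl21b, Ccl27b and 5 further rows named Ccl21a, Ccl21c or Ccl27a. Of all stretches of 50 exon bases, 100% in Ccl21b, 98.1% in Ccl27b and 52.0% in Ccl19 also occur in other annotated genes, so a count of 0 is uncertain for them. Summed counts over the 15 libraries were 160 for Ccl17, 141 for Ccr3, 129 for Ccr9, 81 for Ccr10, 73 for Ccr6, 64 for Ccr4, 62 for Ccr8 and 43 for Ccl28. They were 38 for Cxcl17, 22 for Cxcl11, 21 for Ccr1l1, 14 for Ccl1, 11 for Cxcr1, 6 for Ccl26, 4 for Ccl20, and 1 each for a Ccl21a and a Ccl21c row. Cxcl15, a lung chemokine, held 422 counts in PBS 6, 1 in PBS 2 and 0 elsewhere. PBS 6 also held lung epithelial transcripts, with 44.8 CPM of Sftpc and a summed lung list of 75.0 CPM, against at most 0.650 CPM in the other PBS libraries. Without PBS 6, 30 members were higher and 2 lower than in sham hearts.

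Genes that carry or induce chemokine signals also moved. They were taken from lists chosen with earlier results of these data known. Of 49 genes of chemokine signalling tested, 45 were higher and 2 lower in PBS than sham hearts, with a median of 0.83, while 36.5% of all genes were higher. The largest rises were Rgs1 (4.87 ± 0.49), which limits G protein signals of lymphocyte chemokine receptors, the myeloid kinase gene Fgr (4.34 ± 0.22) and the PI3 kinase gamma adaptor gene Pik3r5 (3.12 ± 0.15). The falls were Rgs2 (−1.43 ± 0.15), a regulator of Gq signals, and Rasgrp2 (−0.58 ± 0.10), an activator of Rap1. Of 19 tested genes on the list of chemokine inducers, which also holds the inhibitor gene Nfkbia, 18 were higher and 1 lower. Il6 had 4.91 ± 0.37, Il1b 3.55 ± 0.41 and Tnf 2.64 ± 0.30, each a cytokine that acts upstream of NF-kB or through STAT3. The 1 that fell was Nfkbia (−0.38 ± 0.10), an inhibitor of NF-kB. Of 20 tested genes of chemokine handling outside the family names, such as proteases and proteoglycans that cut or hold chemokines, 17 were higher and 1 lower.

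The 2 injected groups differed in what was injected, hydrogel or saline. Of 42 members tested, none passed by edgeR, and 0 of 16383 genes did (0%). Fitted values were higher with rHCI for 18 of 26 ligands and lower for 11 of 16 receptors, where 50.4% of all genes were fitted higher and 49.6% lower. Median differences were 0.12 for the ligands, −0.09 for the receptors and 0.00 over all genes. At an unadjusted p under 0.05, Ccl22 and Ccl24 were higher and Cxcr3, Ccl25 and Cxcr6 lower, against 1.12% higher and 2.41% lower over all genes.

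Ccl22 (ENSMUSG00000031779, chromosome 8) encodes MDC, a ligand of CCR4 on regulatory and helper T cells that is made by dendritic cells and macrophages. It had 0.0812, 0.143, 0.133, 0.118 and 0.0904 CPM in the sham libraries, 0.569, 0.637, 0.791, 0.653 and 0.533 CPM in the PBS libraries and 1.60, 1.10, 1.13, 0.880 and 1.18 CPM in the rHCI libraries. All 5 rHCI hearts were above all 5 PBS hearts, as for 0.165% of genes. The mean was 1.18 ± 0.264 CPM with rHCI and 0.637 ± 0.0990 with PBS, a difference of 0.88 ± 0.18 (95% interval 0.49 to 1.28). It did not pass by edgeR (adjusted p = 0.871, and from 0.393 to 1 over the alternatives run with edgeR). DESeq2 gave 0.88 with adjusted p = 0.0441, its 1 call among the members and one of 3 higher and 3 lower genes overall. Ccl17, the other CCR4 ligand, had 0.250 ± 0.124 CPM with rHCI and 0.233 ± 0.121 with PBS.

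The other 4 differed less. Ccl24 was 1.35 CPM with rHCI and 0.978 with PBS (0.46 ± 0.19), beside 1.39 CPM in sham hearts. Ccl25 was 0.890 and 1.10 CPM (−0.31 ± 0.12), Cxcr3 0.811 and 1.13 CPM (−0.47 ± 0.20), and Cxcr6 1.12 and 1.41 CPM (−0.33 ± 0.15). The groups overlapped in each. For Cxcr3 the overlap came from rHCI 3, at 1.23 CPM.

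Among the recruiting genes, the intervals of the rHCI difference were −0.25 to 0.88 for Ccl2, −0.10 to 0.78 for Ccl7 and −0.35 to 1.22 for Ccl8. The interval was narrower for the receptor Ccr2, at −0.39 to 0.11. Cxcl10 had −0.36 ± 0.19, with an interval of −0.77 to 0.05. Marker sums with rHCI were 93.1 to 141 CPM for monocytes, 557 to 674 for macrophages and 13.6 to 29.1 for neutrophils, which overlapped those of PBS hearts.

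**Figure D5:**
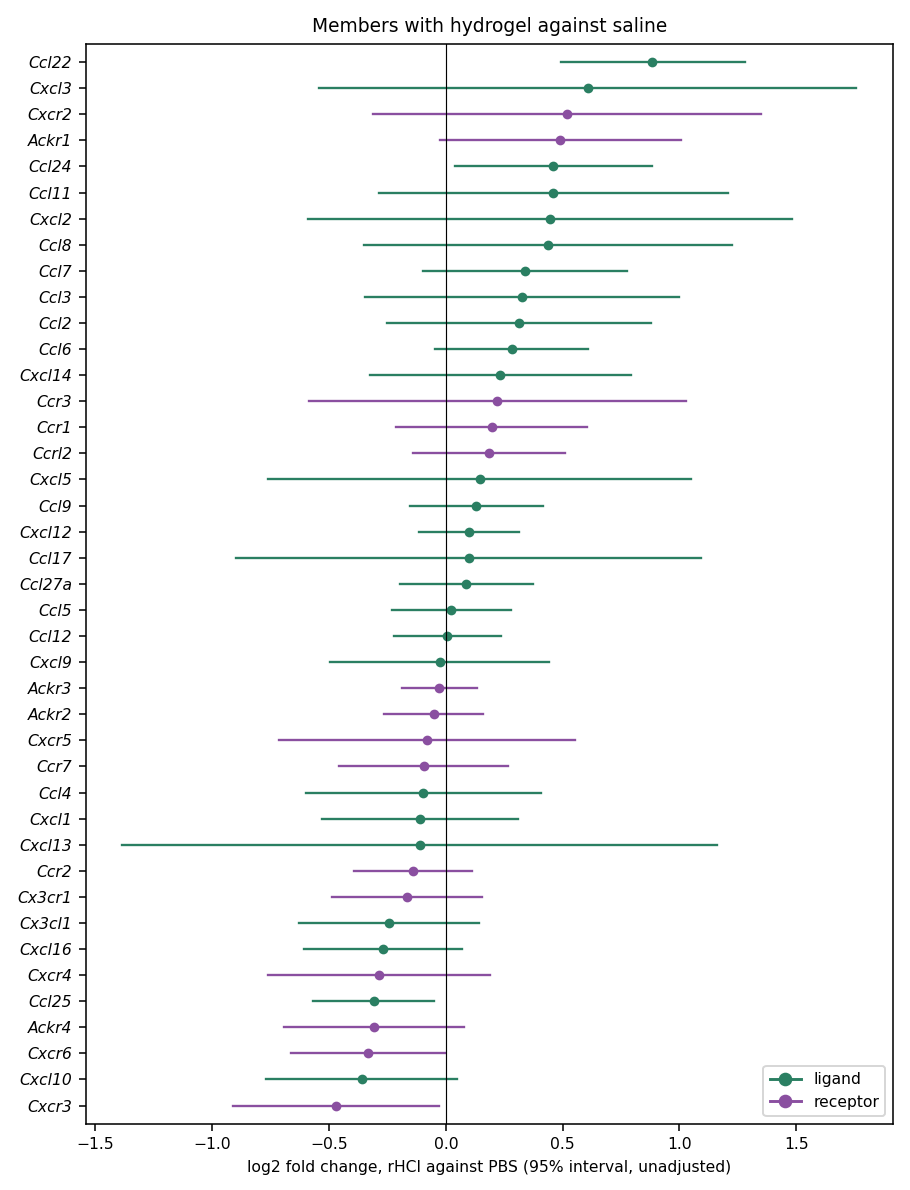
Log2 fold change between rHCI and PBS hearts (x axis, unadjusted 95% interval) of tested members (y axis), with ligands in green and receptors in purple. The interval of Ccl22 lies farthest above 0, and none passed after adjustment over all genes by edgeR.

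The rHCI hearts were also set against the sham hearts, which are shared with the first comparison. Of 40 members tested, 30 were higher and 2 lower, where 34.1% of all genes were higher and 29.7% lower. Ccr2 was 3.62 ± 0.13 above sham (against 3.75 ± 0.16 in PBS hearts), Cxcl5 5.23 ± 0.47 (5.08 ± 0.42) and Ccl8 4.80 ± 0.35 (4.36 ± 0.38). Ccl22 stood at 3.42 ± 0.24 above sham with rHCI and 2.53 ± 0.22 with PBS. Ccrl2 (−0.99 ± 0.29, edgeR adjusted p = 0.00962) and Cxcl14 (−0.79 ± 0.20, edgeR adjusted p = 0.00386) were lower than in sham hearts here too, and Ccrl2 was at −0.60 without Sham 16 (edgeR adjusted p = 0.00985). Both overlapped the sham range, through rHCI 13 in each. Ccl24 and Ccl27a did not pass, at −0.03 ± 0.15 and −0.21 ± 0.13.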

How the data were processed

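The deposited table, per the file headers, holds raw read counts per Ensembl gene and symbol for 15 left ventricle libraries. Per the submitters' processing notes, Trimmomatic, STAR, Cufflinks and edgeR were used with GRCm38 (mm10), and per the labels' protocols the mRNA libraries were stranded. The sources used here do not name the read counter or its strand setting. Counts were tested with edgeR 4.0.16 (glmQLFit and glmQLFTest, TMM, filterByExpr with its default minimum of 10 counts, two-sided, Benjamini-Hochberg over all genes, threshold 0.05) on the 10 libraries of each pair of groups. The fit was tested on simulated data of known fold change. CPM used TMM factors of all 15 libraries, and TPM used exon lengths of GENCODE M21, which held 46574 of 47069 gene IDs. The series states 5 biological replicates per group, and the lowest chi-square per degree of freedom between replicates was 10.7, so none was counted as a duplicate. Intervals are unadjusted 95% intervals. A gene at 0 counts was set to 3 counts over the group. One member is counted but not reported here by name. The genes, lists and tests were chosen with earlier results of these data known. Members given in every library were the 10 largest rises, all falls, the 10 highest in TPM, the members of 6 role lists and the 5 with the smallest p between rHCI and PBS. Alternatives were RLE factors, library totals, DESeq2 1.42.0, other filters, 1 fit of all libraries, the number in the library names, a minimum fold change of 1.2, and leaving out each library.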

Additional observations from a re-analysis of the deposited data

Results flagged for a closer look

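In 10 of 102 groups of 5 libraries checked, the highest or lowest library stood apart from the other 4 by Dixon's criterion, which chance meets in about 5% of groups. The groups were those of the members given in every library and of Cxcl15, which was added outside that rule. The genes were thus not chosen blind to these values, and the 10 cannot be weighed against the 5%. Values are CPM. PBS 2 had the highest Ccl8 among PBS hearts (5.40, others 1.60 to 2.55) and the highest Ccr2 (24.3, others 15.5 to 17.6). PBS 12 had the highest Ccl6 (40.0, others 30.1 to 32.3) and the lowest Ccrl2 (9.08, others 11.7 to 12.5). PBS 6 had the highest Cxcl15 (3.90, others 0 to 0.0271). Sham 16 had the highest Ccrl2 among sham hearts (51.2, others 15.1 to 23.2), Sham 19 the highest Cx3cl1 (11.2, others 9.07 to 9.68) and Sham 20 the highest Cxcr4 (5.47, others 3.57 to 3.98). rHCI 13 had the highest Cxcl14 among rHCI hearts (16.3, others 7.31 to 8.90), and rHCI 11 the highest Cxcl9 (7.80, others 3.63 to 4.65).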

How the results depend on the processing

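No paired analysis was possible because the groups share no replicate numbers. Between PBS and sham, 30 to 33 members were higher when each library was left out in turn and 2 to 4 were lower (2 without PBS 6 or PBS 9). The number lower was 2 with library totals or a minimum fold change of 1.2, and 3 among the 12 libraries that share 1 number in their names. With library totals the share of higher calls among all called genes went from 51.2% to 77.4%, and 34 members were higher, with Cxcl9 (0.54) and Ccl25 (0.43) among them besides Cxcl12 and Ackr3. The 1 CPM filter left 28 members tested and 20 higher, the lowest number among the alternatives, and the highest was 38. Between rHCI and PBS, DESeq2 called 1 member higher (Ccl22). Leaving out each library gave 0 members in either direction. Against sham, rHCI gave 30 to 32 higher and 2 lower members when each library was left out. The other alternatives gave 21 to 36 higher and 2 lower. Differences near 0 changed sign. Cxcl12 between PBS and sham was −0.0050 with RLE factors, −0.0068 with DESeq2 and −0.0624 to 0.0628 when each library was left out. Ccl11 between PBS and sham was 0.0712 with library totals. Between rHCI and sham, library totals gave 0.20 for Ccl24 and 0.0083 for Ccl27a, and Ccl24 ran from −0.104 to 0.0365 when each library was left out. Where a called value was lost, the cause was not tested. Low counts limit the 26 members not tested between PBS and sham, except Cxcl15, whose counts lay almost wholly in PBS 6.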
